A study of Mus musculus with 14 samples.

Results

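ERV1 is the gammaretroviral family of long terminal repeat (LTR) retrotransposons in the mouse genome. Its members were taken as every row of family ERV1 in the deposited tables. These rows comprise 72095 of 3725827 transposable element (TE) copies in the copy tables and 137 subfamilies in the count tables, of which 133 of 1095 TE subfamilies stood in the spermatogonia table and 134 of 1098 in the spermatocyte table. The subfamilies were divided by name alone. The mouse-specific class held 36 subfamilies, with names such as LTRIS, MMERGLN, MuLV, RLTR4 and RLTR6. The rodent class held 28 and the old class, made of LTR and MER numbers, held 73. The copies divided into 21506 mouse-specific, 36725 rodent and 13864 old.

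A complete gammaretroviral provirus carries an LTR at each end of an internal region that codes for gag, pol and env. Its transcription starts in the upstream LTR, and recombination between the LTRs leaves a solitary LTR behind. Among mouse ERV1 elements, MuLV and RLTR4 are related to murine leukemia virus, and MMERGLN elements use a glutamine tRNA primer. MMVL30 is VL30, a group that lacks coding capacity. The RLTR6 names are grouped with it here, although 193 RLTR6-int copies were 7 kb or longer, against 0 MMVL30-int copies. DNA methylation of CpG sites in the LTR is among the means by which the host keeps such copies silent, and DNMT3C is the rodent methyltransferase that acts on young retrotransposons in fetal male germ cells.

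The study compared Dnmt3C KO/KO mice with wild-type (WT) littermates of the C57Bl6/J strain by stranded poly(A) RNA sequencing of sorted germ cells. Spermatogonia (Spg) were sorted as EpCAM-positive, B2M-negative and DAPI-negative cells at postnatal day 14, with 3 libraries from mutants (Spg KO) and 3 from WT. Spermatocytes (Spc) were sorted by DNA content from mice more than 20 days old, with 4 libraries for each genotype. The mutant is constitutive, its germ cells arrest at pachytene, and the WT spermatocyte sort also takes later stages, so that genotype and cell stage cannot be told apart in spermatocytes. Fewer cells of a type and less RNA per cell cannot be told apart either.

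Each library held 40555726 to 53323651 counts over genes and TE subfamilies. Summed levels of the spermatogonial marker list were 1548 to 2351 CPM (the count scaled to library size) in spermatogonia of both genotypes. The pachytene list, 7 genes such as Piwil1 and Ldhc, summed to 7117 to 13501 CPM in WT spermatocytes and 216 to 454 CPM in mutant spermatocytes, where 6 of 7 genes were lower. Spermatid markers, 9 genes that include Prm1 and Tnp1, summed to 66.1 to 1391 CPM in WT spermatocytes and 4.93 to 11.9 CPM in mutant spermatocytes. Spermatogonial markers were at 34.7 to 251 CPM in WT spermatocytes and 415 to 1057 CPM in the mutant. Leydig and macrophage lists, 6 genes each, were higher in mutant spermatocytes in 6 of 6 and 6 of 6 genes. Replicate 2 of WT spermatogonia stood apart, with 1888 CPM of pachytene markers against 313 and 606 CPM in the other WT libraries and 197 to 230 CPM in the mutant. Replicate 3 of WT spermatocytes stood apart too, with 7117 CPM of pachytene and 1391 CPM of spermatid markers. The part of these differences in the ERV1 results was not tested. The gene-level count of Dnmt3c overlapped between genotypes in spermatogonia, at 1.21 to 2.34 CPM in KO and 1.13 to 1.88 CPM in WT, so it does not show the allele.

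Sequences are shown for 6 ERV1 regions that differed between genotypes, to let the CpG content of the elements be read beside their values. They were chosen after their values were seen, as copies that an annotated transcript or promoter window covers. CpG sites are in capitals, and all are written 5′ to 3′ on the strand of the copy in build GRCm38. The LTR stretches come from GENCODE M21 transcripts and the windows from RefSeq promoters. 

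MMERGLN-int_dup46, window of Gm46754, chr2:94806013-94806312, + strand, mouse-specific internal region, higher in KO: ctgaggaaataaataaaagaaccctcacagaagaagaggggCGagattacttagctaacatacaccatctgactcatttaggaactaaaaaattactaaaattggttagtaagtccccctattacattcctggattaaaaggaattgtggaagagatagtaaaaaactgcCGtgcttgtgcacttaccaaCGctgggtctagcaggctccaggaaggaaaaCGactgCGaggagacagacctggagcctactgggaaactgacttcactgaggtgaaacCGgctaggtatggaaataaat
RMER5_dup4034, chrX:36814868-36815167, - strand, rodent LTR, higher in KO spermatocytes: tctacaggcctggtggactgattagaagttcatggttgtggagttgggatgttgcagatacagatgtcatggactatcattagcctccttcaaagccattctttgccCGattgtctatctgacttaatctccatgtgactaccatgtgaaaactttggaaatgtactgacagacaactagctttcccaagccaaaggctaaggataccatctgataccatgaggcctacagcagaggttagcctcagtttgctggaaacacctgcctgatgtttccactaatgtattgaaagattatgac
LTRIS4A_dup183, chr13:66365389-66365688, + strand, mouse-specific LTR, lower in KO spermatocytes: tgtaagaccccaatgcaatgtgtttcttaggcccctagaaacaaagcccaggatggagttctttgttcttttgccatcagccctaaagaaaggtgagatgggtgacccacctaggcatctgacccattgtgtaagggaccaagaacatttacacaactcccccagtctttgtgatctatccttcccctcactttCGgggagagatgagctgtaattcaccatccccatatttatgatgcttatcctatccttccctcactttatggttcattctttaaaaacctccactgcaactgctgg
LTRIS2_dup228, chr3:28852215-28852514, - strand, mouse-specific LTR, lower in KO spermatocytes: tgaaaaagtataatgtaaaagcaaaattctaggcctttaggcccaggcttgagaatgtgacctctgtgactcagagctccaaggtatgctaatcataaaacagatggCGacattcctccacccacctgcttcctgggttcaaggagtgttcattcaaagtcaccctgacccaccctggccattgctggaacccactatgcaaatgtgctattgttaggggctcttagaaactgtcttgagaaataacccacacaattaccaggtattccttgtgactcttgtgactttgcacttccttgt
AY702103 window over RMER21B_dup1161, chr17:50238958-50239257, + strand, rodent LTR, lower in KO spermatocytes: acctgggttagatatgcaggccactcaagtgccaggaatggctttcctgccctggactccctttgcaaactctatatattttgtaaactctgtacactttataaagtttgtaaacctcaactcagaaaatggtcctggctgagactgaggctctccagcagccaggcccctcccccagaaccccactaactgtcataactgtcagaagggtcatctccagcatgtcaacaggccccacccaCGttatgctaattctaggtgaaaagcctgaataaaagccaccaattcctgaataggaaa
MER34A_dup133, chr3:127271648-127271796, + strand, old LTR, lower in KO spermatocytes: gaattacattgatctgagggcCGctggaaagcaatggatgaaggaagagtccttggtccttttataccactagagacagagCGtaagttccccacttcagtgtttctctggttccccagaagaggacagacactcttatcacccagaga

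The MMERGLN window, in an internal region, held 6 CpG sites in 300 bases. The 4 other 300-base stretches, which lie over LTRs, held 1 each, and the MER34A copy held 2 in 149 bases. The set thus sets unlike regions side by side. Over the 586 LTR copies of at least 100 bases that lie wholly in an annotated exon, the mouse-specific copies (88) had a median of 1.78 CpG sites per 100 bases, with quartiles of 1.17 and 2.44. The printed stretches of LTRIS4A_dup183 and LTRIS2_dup228, at 0.333 per 100 bases, lay below that lower quartile. The median was 0.645 in 374 rodent copies, with quartiles of 0.234 and 1.20. It was 0.692 in 124 old copies, with quartiles of 0.230 and 1.27. Only copies in exons could be read, so these figures describe that subset. The motif GCATGCGC, a core of the site of the transcription factor NRF1, searched on both strands, was in 891 of 32851 RefSeq promoter windows of 300 bases (2.71%). It was in 2 of the 178 windows that overlap an ERV1 copy on the same strand, and in 1 of the 586 exonic LTR copies.

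The windows of 4 RefSeq genes in MMERGLN-int copies, Gm46754, Gm46854, Gm46950 and Gm40405, lie at positions 4489 to 4519 of their copies, which are on different chromosomes or at distant places. Aligned to each other they were identical at 297 to 299 of 298 to 300 bases. Reads that align equally well to several copies were divided by an estimate in TElocal, and how many reads that concerns was not measured here. The values of single proviral copies below are therefore uncertain, whereas subfamily totals do not depend on that division within the subfamily.

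In spermatogonia, every mutant library was above every WT library for both MMERGLN members, a separation whose share over all features is not given here. MMERGLN_LTR was at 10.1, 14 and 14.3 CPM in KO against 1.80, 2.26 and 1.90 CPM in WT. The groups did not overlap, and the log2 fold change was 2.69 ± 0.28 (SE; 3 against 3), with an adjusted p of 0.0101 in edgeR that just missed the threshold of 0.01. With the replicate number as a block, a pairing that no label gives, it was 2.68 with an adjusted p of 0.0023 and was called. MMERGLN-int, the internal region, was at 187, 246 and 220 CPM in KO against 105, 102 and 118 CPM in WT. Its log2 fold change was 1.01 ± 0.14, with an adjusted p of 0.0371.

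Of the 96 ERV1 subfamilies tested in spermatogonia, 0 were called, against a background of 0.0741% of all genes and TE subfamilies (16 of 21580), with 0.0695% higher and 0.00463% lower, and 0.76% of TE subfamilies higher and 0.0% lower. At an unadjusted p under 0.05 there were 8, and DESeq2 called 3 as higher and 1 as lower. The higher ones were MMERGLN_LTR, MMERGLN-int and MERV1_LTR, with DESeq2 adjusted p of 2.19e-20, 4.04e-05 and 0.00366, and the lower was LTR68, with 3.24e-07. The median log2 fold change was -0.15 over ERV1 and 0.023 over all features. By class it was -0.15 for the 34 mouse-specific, -0.094 for the 27 rodent and -0.19 for the 35 old subfamilies. The 37 subfamilies of the spermatogonia table left untested had summed counts of 2 to 54.

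Values below the called range were as follows for the other proviral groups. MERV1_LTR was at 4.66, 4.68 and 5.44 CPM in KO against 1.21, 2.68 and 1.39 CPM in WT, a log2 fold change of 1.49 ± 0.37 with an adjusted p of 0.192. LTRIS_Mm was at 15.1, 10.3 and 9.11 CPM against 5.98, 6.40 and 4.98 CPM, with 0.99 ± 0.28 and an adjusted p of 0.276. Both had KO libraries that were all above the WT libraries, again without the share of all features that separate in this way. Of the 1604 LTRIS_Mm reads in KO, 755 came from LTRIS_Mm_dup263 in an intron of Ccnb3, with 378, 200 and 177 reads in KO and 85, 40 and 61 in WT. Ccnb3 itself was at 172, 104 and 68.7 CPM in KO and 82.8, 30.8 and 30.7 CPM in WT, with 1.26 ± 0.46 and an adjusted p of 0.517, and its part in the LTRIS_Mm reads was not tested. MuLV-int did not separate, at 37.5, 46.7 and 29.2 CPM in KO and 35.3, 34.3 and 43.6 CPM in WT. VL30 and RLTR4 elements also overlapped between genotypes, with log2 fold changes of 0.20 for MMVL30-int and -0.22 for RLTR4_MM-int. LTR68, an old subfamily, was at 0.242, 0.187 and 0.255 CPM in KO against 3.13, 14.2 and 1.03 CPM in WT, where the highest value was that of replicate 2, and its adjusted p was 0.105.

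**Figure D1:**
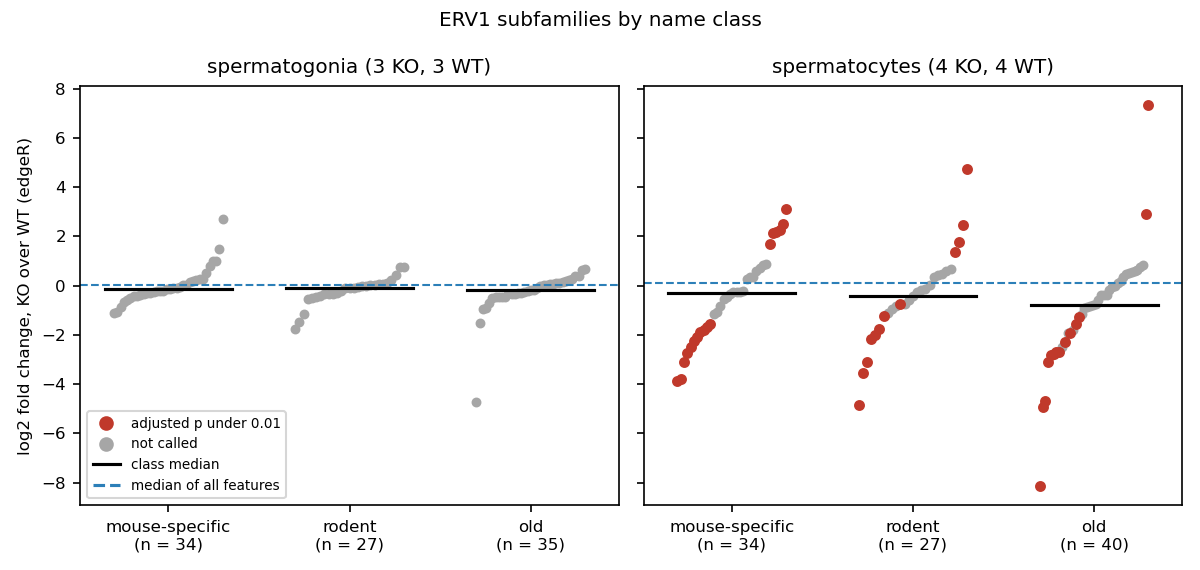
Log2 fold change of each tested ERV1 subfamily (KO over WT, edgeR) in spermatogonia (left) and spermatocytes (right), by name class. Red points passed an adjusted p of 0.01, black lines are class medians and the dashed line is the median of all features: no point is red in spermatogonia, while in spermatocytes the class medians run from -0.31 to -0.78. The highest old point, LTR45, has 0 counts in all WT spermatocyte libraries, so its fitted value is no measure of size.

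At the level of copies, the limma test on log2 TPM (TPM, scaled by copy length and library over all TE copies) called 0 of 3034 ERV1 copies in spermatogonia, against a background of 0.00911% of TE copies, with 0.00872% higher and 0.000396% lower. The TPM values were whole multiples of 1 read, so edgeR was also run on whole reads. That test called 46 of 677 ERV1 copies as higher and 22 as lower in KO. The background of that test was 14% of all TE copies, with 13.6% higher and 0.425% lower. The mouse-specific class held 40 of the 46 higher copies, of 435 tested. Rodent copies were 6 higher and 13 lower of 215, and old copies were 0 higher and 2 lower of 27.

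Of the 46 higher copies, 26 were MMERGLN-int and 3 were MMERGLN_LTR. Among the 68 MMERGLN-int copies of 7 kb or more, the length of a nearly complete internal region, 62 had reads in spermatogonia and 33 had reads in KO and none in WT. A copy without WT reads could pass the filter on low values only through its KO reads, so the counts of tested copies give no share of all copies. MMERGLN-int_dup132, an antisense insertion in an intron of Adgrl3 (chr5:81626059-81633612, - strand), had 155, 354 and 330 reads in KO spermatogonia and 0 in each WT library. The copy whose window is printed above, MMERGLN-int_dup46 (chr2:94801494-94809047), had 18, 232 and 278 reads against 0, 0 and 0. MMERGLN-int_dup100 (chr4:51871879-51879434) had 139, 109 and 72 reads against 0, 0 and 5. Copies with no WT read are given by their reads only.

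Both genotypes transcribed a pair of MMERGLN-int copies. MMERGLN-int_dup81 (chr4:11176470-11183871, - strand, outside genes) had 2211, 3060 and 1796 reads in KO spermatogonia against 1580, 1747 and 1934 in WT. MMERGLN-int_dup53 (chr2:156831133-156833492, - strand, in an exon of Gm14230) had 2633, 2146 and 2558 against 2505, 1372 and 2174 reads. Neither was called. All other MMERGLN-int copies together gave 88.8, 138 and 128 unscaled CPM (reads over total counts) in KO against 18.3, 23.4 and 29.4 in WT. The number of MMERGLN-int copies with a read was 111 to 130 in KO and 60 to 76 in WT.

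**Figure D2:**
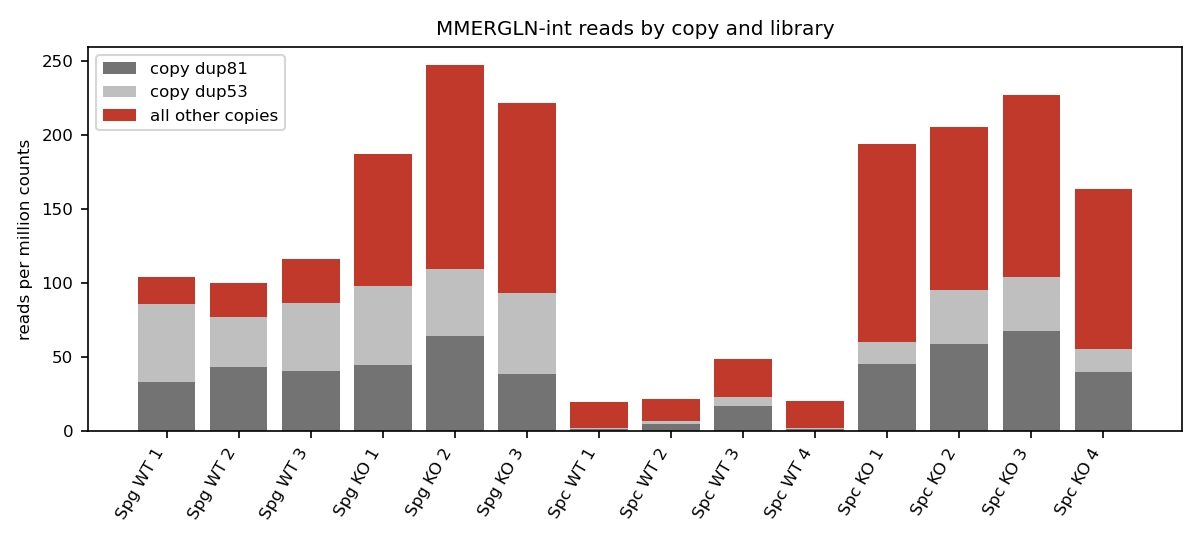
MMERGLN-int reads in unscaled CPM of each library, stacked by copy (dup81 dark grey, dup53 light grey, all other copies red). In spermatogonia the red part reaches 88.8 to 138 for KO and 18.3 to 29.4 for WT, while the grey parts stand in both genotypes.

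Other mouse-specific copies were also higher in mutant spermatogonia. MERV1_LTR_dup546 (chr16:31557510-31557979, - strand, outside genes) had 156, 110 and 215 reads in KO and 0 in each WT library, and gave 67.9% of all MERV1_LTR reads in KO. LTRIS_Mm_dup255 (chr9:98260683-98261160) had 37, 32 and 34 reads in KO and 0 in WT. RLTR24B_MM held 3 higher copies, among them RLTR24B_MM_dup71 in an intron of Ptprt, with 40, 34 and 16 reads against 0. An RLTR4 provirus, RLTR4_MM-int_dup328 (chr13:21813151-21819260, + strand), rose from 7, 4 and 2 reads in WT to 395, 763 and 421 in KO, a log2 fold change of 6.78 with an adjusted p of 3.6e-05. It was the 1 higher copy of 41 RLTR4_MM-int copies tested.

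The 22 lower copies in spermatogonia included 13 rodent elements, among them copies of RMER21B, RodERV21-int and MLTR14. LTR68_dup24 (chr4:57359278-57359667, - strand) had 138, 566 and 40 reads in WT and was not read in KO. RMER21B_dup1031 had 0 against 62, 349 and 32. In both, the highest WT library was replicate 2, the library with the high pachytene markers. Without that library 46 copies were higher and 8 lower. Over all libraries left out in turn the higher calls numbered 33 to 51 and the lower calls 5 to 40, the latter from 5, 9 and 11 without KO replicates 3, 2 and 1 to 37 and 40 without WT replicates 3 and 1.

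Spermatocytes had many more calls. Of the 101 ERV1 subfamilies tested, 12 were higher and 31 lower in KO, or 11.9% and 30.7%, where the background was 57.4% of all genes and TE subfamilies, with 27.4% higher and 30.1% lower. Over TE subfamilies alone the background was 11.7% higher and 14% lower. The median log2 fold change was -0.45 over ERV1 and 0.11 over all features. Scaling by library totals alone raised the median of all features to 0.79 and changed the ERV1 split to 17 higher and 23 lower. Replicates 1 and 4 of spermatocytes resembled each other far more than other pairs in both genotypes, and with their counts summed 7 subfamilies were higher and 23 lower. The 33 untested subfamilies had summed counts of 2 to 74.

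The classes differed in their counts of higher calls, without a test of that difference. The mouse-specific class had 6 higher and 11 lower of 34, with a median of -0.31. The rodent class had 4 higher and 8 lower of 27 and a median of -0.43. The old class had 2 higher and 12 lower of 40 and a median of -0.78. Internal regions had 2 higher and 7 lower of 19, and LTRs 10 higher and 24 lower of 82.

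MMERGLN was again higher in mutant spermatocytes. MMERGLN_LTR was at 11.8, 11, 9.94 and 10.5 CPM in KO against 1.02, 1.13, 1.86 and 0.904 CPM in WT, a rise of 3.13 ± 0.36 on the log2 scale (4 against 4) with an adjusted p of 5.74e-05 in edgeR. MMERGLN-int was at 161, 147, 172 and 139 CPM against 29.6, 27.1, 48.9 and 30.2 CPM, with 2.19 ± 0.23 and an adjusted p of 3.61e-05. In both, the genotypes were far apart and WT replicate 3 was the highest WT library. The copies other than dup81 and dup53 gave 108 to 133 unscaled CPM in KO and 15 to 25.8 in WT, close to their spermatogonia values. The copy dup81 had 1870 to 3026 reads in KO and 52 to 848 in WT spermatocytes.

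The stage comparison was called for MMERGLN-int and not for MMERGLN_LTR, and the 2 members were not tested against each other. For MMERGLN-int the KO effect was larger in spermatocytes by 1.12 ± 0.30 on the log2 scale, with an adjusted p of 0.00935 in edgeR. That call was lost when any of 10 libraries was left out, with adjusted p up to 0.02, for instance without replicate 1 of WT spermatocytes, and when spermatocyte replicates 1 and 4 were summed (1.03, adjusted p 0.0273). For MMERGLN_LTR the difference of effects was 0.38 ± 0.43 with an adjusted p of 0.49. In WT, MMERGLN-int was lower in spermatocytes than in spermatogonia by a log2 value of -1.18 (adjusted p 0.000291), and MMERGLN_LTR by -0.19 (adjusted p 0.608).

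**Figure D3:**
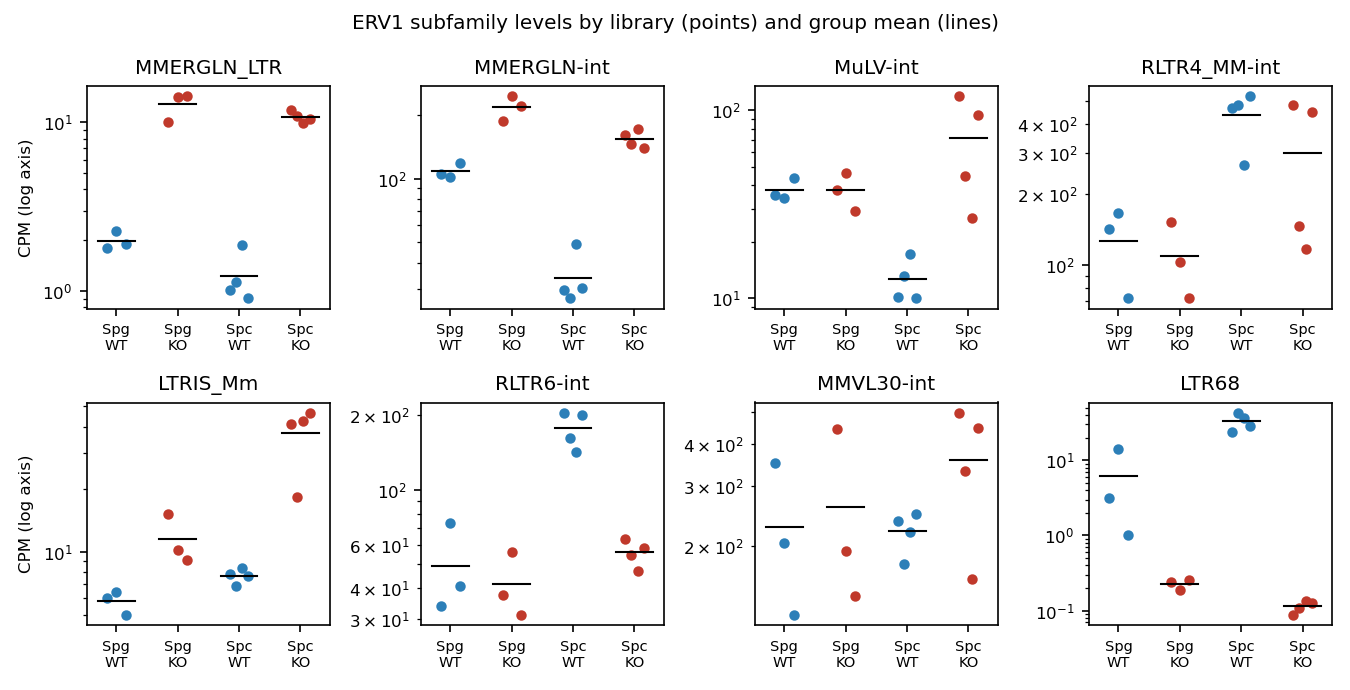
CPM on a log axis of 8 ERV1 subfamilies, with a point for each library (WT blue, KO red) and a line at the mean of each group. The MMERGLN pair is higher in KO at both stages, MuLV-int and LTRIS_Mm are higher in KO spermatocytes, RLTR6-int and LTR68 are higher in WT spermatocytes, and RLTR4_MM-int and MMVL30-int overlap.

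MuLV-int, related to murine leukemia virus, rose in mutant spermatocytes to 119, 44.5, 26.8 and 94.0 CPM from 10.1, 13.1, 17.2 and 9.98 CPM in WT. The KO values spread widely but did not overlap WT. KO replicates 1 and 4, the highest in MuLV-int, were also the highest in Sertoli markers, which summed to 1037, 378, 289 and 996 CPM in KO and 130 to 451 CPM in WT, with 2 of 8 genes higher. They were the highest in Leydig markers too, at 309, 50.0, 57.2 and 258 CPM in KO and 12.7 to 25.4 CPM in WT. RLTR30D_RN, RLTR4_MM-int and MMVL30-int were likewise highest in these KO libraries, and the part of such cells in these values was not tested. For MuLV-int the log2 fold change was 2.50 ± 0.45 with an adjusted p of 0.000828. The effect exceeded that in spermatogonia by 2.43 ± 0.59 (adjusted p 0.00557), a call that was lost without any of 5 libraries, with adjusted p up to 0.0152 (without replicate 3 of KO spermatogonia), with the replicate block (2.27, adjusted p 0.0305), and when spermatocyte replicates 1 and 4 were summed (2.03, adjusted p 0.0219). Its most read copy in KO spermatocytes, MuLV-int_dup62 (chr4:134162051-134163888, + strand, in an intron of Cep85 on the other strand), had 3120, 986, 307 and 2293 reads in KO and 32, 28, 120 and 25 in WT. RLTR4 stretches adjoin MuLV-int_dup62 on both sides, and their RLTR4_MM-int_dup130 and RLTR4_MM-int_dup131 were higher too, by 5.28 and 4.01 on the log2 scale. MuLV-int and RLTR4 rows can thus be annotated pieces of the same provirus. The copy most read over all libraries, MuLV-int_dup74 (chr5:23701114-23708710, - strand), lies in an exon of AI506816 and had 697 to 1194 reads in KO and 16 to 195 in WT spermatocytes. The gene AI506816 moved the same way, at 12.4 to 33.5 CPM in KO and 1.03 to 5.69 CPM in WT.

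RLTR4 totals did not pass the test in spermatocytes. RLTR4_MM-int was at 483, 146, 117 and 449 CPM in KO and 468, 479, 267 and 524 CPM in WT, with a log2 fold change of -0.54 ± 0.46 and an adjusted p of 0.306. Of 59 copies tested on whole reads, 24 were higher and 5 lower, no larger a share than the 47.9% and 17.5% of all TE copies in that test. Copies of 7 kb or more held 57961 reads in WT and 21526 in KO, whereas copies of 1 to 7 kb held 5339 in WT and 40120 in KO. A copy of 1 to 7 kb can be an annotated piece of a longer provirus. Most WT reads of the long copies came from RLTR4_MM-int_dup427 (22604), RLTR4_MM-int_dup277 (16689) and RLTR4_MM-int_dup122 (6955). The leading copy, dup427, had 2205, 903, 0 and 2501 reads in KO and 5841, 6343, 3862 and 6558 in WT and was not called (adjusted p 0.0342 on whole reads). RLTR4_MM-int_dup277 (chr10:22735021-22742579) had 1029 to 2533 reads in KO and 3910 to 4612 in WT, called lower by limma on log2 TPM (-2.13, adjusted p 0.00335) but not by edgeR on whole reads (-1.73, adjusted p 0.0379). RLTR4_MM-int_dup328 had 661 to 1491 against 2 to 7 reads, a log2 fold change of 7.42 ± 0.87.

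MMVL30-int, the VL30 internal region, did not pass, at 160 to 497 CPM in KO and 177 to 249 CPM in WT, with 0.70 ± 0.32 and an adjusted p of 0.0695, and passed with 0.95 (adjusted p 0.00515) when KO replicate 3 was left out and with 1.38 (adjusted p 0.00246) with library totals. The VL30 LTR RLTR6_Mm was at 34.8 to 90.6 CPM in KO and 42.3 to 50.6 CPM in WT, with 0.58 ± 0.28 and an adjusted p of 0.0848, and passed without KO replicate 3 (0.81, adjusted p 0.0065) and with library totals (1.25, adjusted p 0.00445). On whole reads 45 of the 90 tested MMVL30-int copies were higher and 5 lower, where 47.9% of all TE copies were higher and 17.5% lower. The leading copy over all libraries, MMVL30-int_dup259 (chr6:18843363-18846295, - strand, in an exon of Gm20186), had 1698, 907, 1056 and 1576 reads in KO against 2190, 1826, 1933 and 2091 in WT, lower by limma (-1.58, adjusted p 0.00938) and not by edgeR on whole reads (adjusted p 0.113). MMVL30-int_dup845 was at 710 to 1510 reads in KO and 1352 to 2049 in WT and was not called. In the other direction, MMVL30-int_dup751 (chr13:55185025-55188682) had 4650, 1401, 305 and 3382 reads in KO against 74, 93, 197 and 78 in WT. RLTR6-int fell by 1.66 ± 0.20 on the log2 scale, from 142 to 204 CPM in WT to 46.8 to 63.5 CPM in KO, with an adjusted p of 6.84e-05. Its copy RLTR6-int_dup386 (chr8:27304312-27311977, + strand) gave 31.5% of the WT reads, with 2558, 2152, 1582 and 2222 in WT and 27, 14, 24 and 39 in KO. Without it and RLTR6-int_dup406, the other copies overlapped, at 59.6 to 75.1 unscaled CPM in KO and 66.0 to 91.0 in WT. The LTR that follows it, RLTR6B_Mm_dup247, had 353 to 545 reads in WT and 0 to 2 in KO.

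LTRIS_Mm was the LTRIS member that rose, from 7.83, 6.89, 8.40 and 7.64 CPM in WT to 41.1, 18.3, 42.4 and 46.7 CPM in KO spermatocytes. Its log2 fold change was 2.27 ± 0.32 with an adjusted p of 0.000192. A single copy in an intron of Ccnb3 on the same strand, LTRIS_Mm_dup263 (chrX:6998453-6998934), gave 68.0% of the KO reads and 2.04% of the WT reads. The internal copy beside it, MuRRS-int_dup195 (chrX:6998935-7000000), had 1298 to 3569 reads in KO and 4 to 55 in WT. Ccnb3, which codes for cyclin B3 of early meiotic prophase, was itself at 191 to 608 CPM in KO and 0.824 to 15.5 CPM in WT, a log2 fold change of 6.40 ± 0.96. Its part in the LTRIS_Mm reads was not tested. Outside that copy and LTRIS_Mm_dup500, LTRIS_Mm gave 8.79 to 17.0 unscaled CPM in KO and 2.98 to 5.88 in WT.

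The other LTRIS subfamilies fell or did not pass. LTRIS4A was at 2.48, 2.82, 2.91 and 1.87 CPM in KO against 44.8, 38.9, 22.9 and 43.4 CPM in WT, a fall of -3.90 ± 0.32 with an adjusted p of 9.43e-06. LTRIS2 (-2.48), LTRIS4 (-1.82), LTRIS5 (-3.11) and LTRIS_Mus (-2.07) were called too, the LTRIS4 call being lost without KO replicate 1 or 4, with library totals (-1.05, adjusted p 0.0426) and when replicates 1 and 4 were summed (adjusted p 0.0293), while LTRIS3 (0.33), LTRIS4B (-0.28) and LTRIS6 (-0.81) were not. The printed LTRIS4A_dup183 had 671, 556, 502 and 562 reads in WT spermatocytes and 13, 34, 19 and 10 in KO. The printed LTRIS2_dup228, in an exon of Gm37867, had 32, 29, 24 and 19 reads in WT and none in KO.

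Totals that did not differ could hold opposite copies. MERV1_LTR was at 5.77 to 10.3 CPM in KO and 4.79 to 7.17 CPM in WT spermatocytes, with 0.35 ± 0.31 and an adjusted p of 0.332. Its MERV1_LTR_dup546 had 300, 257, 476 and 344 reads in KO and 0 in WT, and MERV1_LTR_dup13 had 0, 0, 6 and 7 in KO and 179, 193, 123 and 164 in WT. MuRRS-int was at -0.35 ± 0.30 and did not pass, with MuRRS-int_dup195 of Ccnb3 higher and MuRRS-int_dup868 (chr13:50311600-50316853) lower, at 10 to 48 reads in KO and 2182 to 4326 in WT. MURVY-int (-0.24) and MERV1_I-int (0.25) did not pass, and MURVY-LTR fell by 2.27 ± 0.29 with an adjusted p of 0.000113.

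In the 4 rodent and old subfamilies with the largest falls, most WT reads came from 1 copy. LTR68 was at 0.0878, 0.109, 0.135 and 0.127 CPM in KO against 23.6, 43.0, 36.6 and 29.0 CPM in WT, a log2 fold change of -8.14 ± 0.39 with an adjusted p of 2.53e-06. Its LTR68_dup24 gave 99.9% of the WT reads, with 857, 1709, 1805 and 929 reads against 0, 0, 2 and 3 in KO. The leading copies of LTR37-int, MER65-int and RLTR41A2 gave 97.9%, 97.0% and 95.5% of the WT reads of their subfamilies, whose log2 fold changes were -4.93, -4.71 and -4.84. RMER21B fell by 3.55 ± 0.25 with a broader base, since RMER21B_dup1031 gave 31.9% of its WT reads and 15 of 22 tested copies were lower.

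The printed AY702103 window lies over RMER21B_dup1161, and the transcription start of this long non-coding RNA is inside the copy. AY702103 was at 325, 157, 102 and 355 CPM in WT spermatocytes and at 0.771, 0, 0.151 and 0.797 CPM in KO. RMER21B_dup1161 itself had 34, 27, 22 and 27 reads in WT and 0, 0, 0 and 2 in KO. MMERGLN_LTR_dup206 (chr8:121832845-121833274, + strand) covers the start of another such RNA, Gm42047, with the reverse pattern. Gm42047 was at 4.96, 9.35 and 10.7 CPM in KO and 0.513 to 0.818 CPM in WT spermatogonia, with a log2 fold change of 3.68 ± 0.41 and an adjusted p of 0.0147. In spermatocytes it was at 6.82 to 25.8 CPM in KO and 0.0549 to 0.201 CPM in WT, with an adjusted p of 3.18e-05.

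Few rodent and old subfamilies rose. RLTR30D_RN was at 17.2, 4.88, 5.70 and 15.2 CPM in KO against 0.0825, 0.377, 0.951 and 0.156 CPM in WT spermatocytes, a rise of 4.74 ± 0.80 with an adjusted p of 0.000544. Its RLTR30D_RN_dup54 (chr17:34997140-34997395) gave 68.1% of the KO reads. LTR45 had 94 counts over the KO libraries and 0 in WT, which is at least 5.23-fold higher at a floor of 3 counts per library. RLTR1A2_MM, a mouse-specific LTR whose most read copy adjoins MMERGLN-int_dup53, rose by 2.14 ± 0.47, a call that was lost when the similar replicates 1 and 4 were summed (2.02, adjusted p 0.0142). RLTR48B rose by 1.77 ± 0.41 and RLTR41C rose by 2.46 ± 0.40, and the RLTR48B call was lost without KO replicate 1 or 4 or WT replicate 1 or 4, and when replicates 1 and 4 were summed (adjusted p 0.033). The printed RMER5_dup4034, in an exon of Mdrl, had 93, 42, 85 and 50 reads in KO and 0, 2, 8 and 1 in WT.

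**Figure D4:**
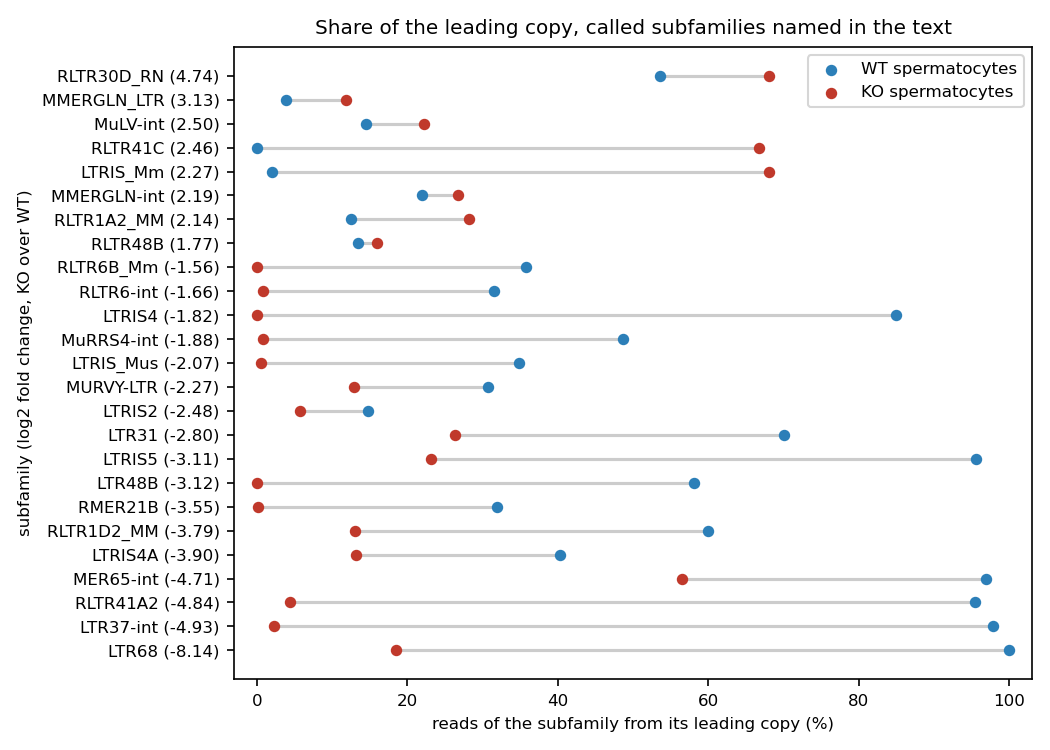
Share of a subfamily's reads that came from its most read copy in WT (blue) and KO (red) spermatocytes, for 25 called subfamilies ordered by log2 fold change, which is given beside each name. The WT share reaches 99.9% in LTR68. The most read copy over all libraries is picked mainly on reads of the genotype in which the subfamily is high, so which genotype has the larger share follows largely from that choice.

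Over copies in spermatocytes, limma called 192 of 3373 ERV1 copies higher and 355 lower (64 and 177 with replicates 1 and 4 averaged), against a background of 11.2% of TE copies, 7.17% higher and 4.06% lower. The test on whole reads called 250 of 861 higher and 287 lower, where the background was 65.4%, with 47.9% higher and 17.5% lower. By class, it called 200 higher and 130 lower of 537 mouse-specific copies, 45 and 128 of 272 rodent copies, and 5 and 29 of 52 old copies. The median log2 fold changes of these copies were 1.12, -1.35 and -2.25 in that order. Called LTR and internal copies within 100 bases of each other on the same strand formed 67 pairs in spermatocytes, of which 66 had the same sign and 44 were higher. Some copies recur in these pairs and neighbours can lie in the same transcript, so the pairs are not separate loci. The shared sign is therefore a description only. Of the 46 copies higher in spermatogonia 35 were tested in spermatocytes, and 33 of those were higher and 0 lower. All 22 lower copies were lower in spermatocytes too. The matching shares over TE copies of all families are not given here, so these counts are no result particular to ERV1. Copies without reads in a genotype passed the filter on low values only through the other genotype.

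The KO effect differed between the stages in 19 of 106 subfamilies tested, where the log2 difference (spermatocytes minus spermatogonia) was positive in 4 and negative in 15, against a background of 24.9% of features, 10.7% positive and 14.3% negative, and 1.64% and 4.81% of TE subfamilies. With library totals as the scale the split turned to 7 positive and 4 negative. A negative difference can be a deeper fall, as in LTR37-int, which was at -0.94 in spermatogonia and -4.93 in spermatocytes. The largest differences were in RLTR30D_RN (3.90 ± 0.92) and MER65-int (-4.32 ± 0.77), and that of RLTR30D_RN was lost without any 1 of the KO spermatogonia libraries (adjusted p up to 0.0122) with the replicate block (adjusted p 0.0189) and with spermatocyte replicates 1 and 4 summed (adjusted p 0.014). In WT alone, 40 of the 106 were higher and 3 lower in spermatocytes than in spermatogonia, where the background was 51.4%, with 28.9% higher and 22.5% lower, and 22.7% of TE subfamilies were higher and 2.76% lower. The mouse-specific class had 14 higher of 34, the rodent class 10 of 27 and the old class 16 of 45. LTRIS4A, for example, was 3.37 higher on the log2 scale, and LTRIS5 4.91 higher. Stage is confounded with age and sort in this contrast.

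ERV1 took 7.06% to 10.5% of the TE reads in WT spermatocytes and 1.92% to 3.39% in mutant spermatocytes. Its reads numbered 86972 to 99730 in WT and 73764 to 123796 in KO and overlapped, while all TE reads were 825841 to 1410905 in WT and 2576284 to 3833925 in KO. In spermatogonia the share overlapped, at 2.41% to 3.69% for KO and 2.78% to 5.05% for WT. The share of the rodent class did not overlap there, at 0.524% to 0.623% of TE reads in KO and 0.812% to 1.24% in WT, nor did that of the old class, at 0.0939% to 0.113% and 0.135% to 0.208%. All TE reads in spermatogonia were 1649727 to 2545285 in KO and 1067405 to 1520108 in WT, so a lower share need not mean fewer reads of a class. Old copies took 0.476% to 0.645% of TE reads in WT spermatocytes and 0.0799% to 0.0917% in KO.

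Host genes that bear on gammaretroviruses, in lists of receptors, silencing factors and restriction factors, did not pass the test in spermatogonia, where Trim30a and the captured envelope genes Syna and Synb were too low to be tested. In spermatocytes, of the receptors, the phosphate transporter genes Slc20a1 and Slc20a2 rose, by 1.06 ± 0.24 and 2.29 ± 0.45 on the log2 scale, Xpr1 fell by 0.86 ± 0.22, and Slc7a1 was at -0.55 ± 0.18 with an adjusted p of 0.022 in edgeR. Among silencing factors, the KRAB co-repressor gene Trim28 fell by 1.49, Uhrf1 fell by 0.78 and the remodeller gene Hells rose by 2.65, while Setdb1, Dnmt1, Yy1, Atf7ip and Zfp809 did not pass. All 6 restriction factors listed, Apobec3, Bst2, Samhd1, Mov10, Zc3hav1 and Trim30a, were higher, with log2 fold changes of 1.36 to 4.04, where 27.4% of all genes and TE subfamilies were higher. Macrophage markers were higher in the same libraries, at 23.6 to 127 CPM in KO against 2.84 to 6.03 CPM in WT, and their part in these values was not tested.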

How the data were processed

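The 14 libraries were mapped to groups by their labels. The authors trimmed reads with cutadapt 4.0, aligned them with STAR 2.7.3a to GRCm38 with up to 100 alignments kept, and counted genes and TE subfamilies with TEtranscripts 2.2.3 and single copies with TElocal 1.1.1. The deposited counts are raw counts per gene or subfamily, in which a read with several alignments is divided by estimate. The deposited TPM values are transcript abundances scaled by copy length and library over TE copies. The authors left out 1 spermatogonia library of each genotype for low RNA integrity. Columns with the authors' own fold changes and p-values were not used.

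Counts were tested with edgeR's quasi-likelihood test after filterByExpr and TMM scaling, with Benjamini-Hochberg adjustment over all genes and TE subfamilies and calls under 0.01. CPM uses the same scaling. Copies were tested with limma on log2(TPM + 0.1) at a mean TPM of at least 0.5, so these fold changes understate those of low copies. Of the TPM values above 0, 100% were whole multiples of 1 read within 0.001 reads in all libraries, and edgeR was run on these whole reads, a choice made after seeing the data. Intervals from so few libraries cover only the spread between them, and the labels do not say that each library came from a separate animal. The methods speak of triplicates of each genotype, whereas 4 spermatocyte libraries of each genotype were deposited, of which replicates 1 and 4 were the most alike, so an n of 4 may count some material more than once.

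Same-numbered spermatogonia libraries had correlated deviations (0.519, 0.167 and 0.181). However, KO replicate 2 with WT replicate 3 reached 0.263, and no label pairs the libraries. The numbers were taken as a block all the same. The fit with the replicate block is given where it changes the call of a named subfamily, here or in the closing section. For copies it is given only as counts of calls. The named subfamilies were all MMERGLN, MuLV (with RLTR4_MM-int and RLTR4_Mm), VL30 (MMVL30 and RLTR6), MERV1, MURVY (with RLTR5_Mm), MuRRS and LTRIS members, plus, per comparison, the top 8 called risers and the top 8 called fallers at a mean count of at least 20. The named copies were the most read copy of each such subfamily and, per stage, the top 8 called copies in either direction whose groups did not overlap. Other copies, and the genes beside copies, were chosen after their values were seen. The members and lists were chosen with earlier results of these data known. Alternatives covered scaling, filters, pseudocounts, DESeq2, the replicate block and leaving out each library.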

Additional observations from a re-analysis of the deposited data

Results flagged for a closer look

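In spermatocytes, 7 of the 78 groups of 4 libraries tested held a library far from the rest, where chance gives about 1 in 20. WT replicate 3 stood apart in MMERGLN-int (48.9 CPM), RLTR1A2_MM (6.72 CPM), MERV1_I-int (33.8 CPM) and RMER21B (83.1 CPM). KO replicate 2 stood apart in LTRIS2 (6.90 CPM) and RLTR41C (1.66 CPM), and KO replicate 3 in MER65-int (0.202 CPM).

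The KO effect differed between spermatocytes and spermatogonia in an edgeR interaction test for 17 named subfamilies, given here as the log2 difference (spermatocytes minus spermatogonia). The difference was positive in RLTR30D_RN (3.90), MuLV-int (2.43), RLTR48B (2.26) and MMERGLN-int (1.12). It was negative in MER65-int (-4.32), LTR37-int (-4.06), LTRIS5 (-3.96), LTR68 (-3.51), LTRIS4A (-3.28), RLTR41A2 (-3.14), RLTR1D2_MM (-2.78), LTR31 (-2.56), RMER21B (-2.47), LTRIS2 (-1.94), MURVY-LTR (-1.89), LTRIS_Mus (-1.73) and RLTR6-int (-1.48). In 13 of the 17 the call was lost when some single library was left out, and it was kept under each library left out in LTR37-int, LTRIS4A, LTRIS_Mus and MER65-int, of which LTRIS_Mus lost it with library totals (-0.98, adjusted p 0.0343). With spermatocyte replicates 1 and 4 summed, 12 of the 17 lost the call and 5 kept it (LTR37-int, LTRIS4A, LTRIS_Mus, MER65-int and RLTR1D2_MM). Stage is confounded with age and sort.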

How the results depend on the processing

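In spermatogonia, where no ERV1 subfamily was called, 2 were called at an adjusted p under 0.05, 1 with DESeq2 size factors, 1 with TMM on genes alone, 2 without a filter, 1 with the replicate block, 1 with library sizes before the filter and 4 by DESeq2. Leaving out a library gave 0 to 0 calls in spermatogonia, 33 to 44 in spermatocytes and 36 to 45 for the WT stages, and summing spermatocyte replicates 1 and 4 turned the 43 spermatocyte calls into 30 (7 higher and 23 lower). The 19 calls of a stage difference became 33 at an adjusted p under 0.05, 11 with library totals (7 positive and 4 negative), 29 by DESeq2, 6 with spermatocyte replicates 1 and 4 summed, and 7 to 23 with a library left out. These replicates differed by a chi-square per degree of freedom of 11.6 in KO and 14.9 in WT, above sampling noise, against 129 to 286 for other spermatocyte pairs. With every name that starts with RLTR4, RLTR5 or RLTR6 in the mouse-specific class, that class had 8 higher and 13 lower of 41 in spermatocytes.

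For copies in spermatogonia, limma gave 0 calls, 6 with a pseudocount of 0.5, 6 without a filter, 3 at an adjusted p under 0.05 and 0 to 0 with a library left out, while whole reads gave 68 (46 higher and 22 lower), 38 to 91 with a library left out (33 to 51 higher and 5 to 40 lower, the lowest without KO replicate 3), and 81 with the replicate block. In spermatocytes the 547 calls of limma (192 higher and 355 lower) became 237 with the replicate block (49 and 188), 241 with replicates 1 and 4 averaged (64 and 177), 933 at an adjusted p under 0.05 and 322 to 591 with a library left out (94 to 252 higher and 227 to 351 lower, the lowest totals without WT replicate 1 or 4). Whole reads gave 524 to 686 with a library left out and 507 with the block. Same-numbered spermatocyte libraries did not all deviate together (correlations of 0.0773, 0.208, -0.0051 and 0.12), so the block there rests on a number only. The block ended the spermatocyte calls of LTRIS4 (adjusted p 0.013) and RLTR48B (0.0106), the stage differences of MuLV-int (0.0305), RLTR30D_RN (0.0189), RLTR48B (0.0122) and LTRIS5 (0.0143), and the WT stage call of RLTR30D_RN (0.0213), out of 17 named subfamilies called for the stage difference and 23 for the WT stages.

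Directions turned only in values that had not passed. In spermatogonia LTR48B was 0.0014 with library totals and 0.0018 without a filter, and with the replicate block MuLV-int was -0.013 and RLTR6B_Mm -0.016. With library totals in spermatocytes, LTRIS4B (0.39), MURVY-int (0.37), MuRRS-int (0.33), RLTR4_MM-int (0.15), RLTR4_Mm (0.45) and RLTR6C_Mm (0.15) turned positive. With a library left out, the log2 fold changes in spermatogonia ran from -0.99 to 0.63 for LTR48B, -0.83 to 0.10 for LTRIS4, -0.091 to 0.63 for LTRIS4B, -0.21 to 1.30 for LTRIS5, -0.53 to 0.32 for LTRIS6, -0.56 to 0.15 for MERV1_I-int, -0.42 to 0.64 for MMVL30-int, -0.70 to 0.031 for MURVY-LTR, -0.18 to 0.17 for MuLV-int, -0.019 to 0.78 for MuRRS-int, -0.66 to 0.22 for MuRRS4-int, -0.51 to 0.043 for RLTR4_MM-int, -0.51 to 0.17 for RLTR6-int, -0.17 to 0.28 for RLTR6B_Mm, -0.65 to 0.28 for RLTR6C_Mm and -0.50 to 0.22 for RLTR6_Mm, and in spermatocytes from -0.54 to 0.029 for RLTR4_Mm. The cause was not tested.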
